A study of Bos taurus with 12 samples.

Results

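Methylated DNA was mapped in longissimus dorsi muscle of Angus cattle with tender or tough beef, and 2 stretches of chromosome 27 that carried unusually many peaks are described here. They are the 1 Mb windows chr27:28000001-29000000 and chr27:37000001-38000000 of build bosTau8, called the 28 Mb window and the 37 Mb window below. Every peak that starts in one of them was taken, from the 12 lists of single libraries and from the 6 lists of merged replicates. This gave 4410 of 254474 peaks in the single libraries, 3326 in the 28 Mb window and 1084 in the 37 Mb window, and 2703 of 371966 peaks in the merged lists. The windows were chosen by their number of peaks, so number, share and spacing are given as a description without a test.

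The study used MBD-seq, in which sheared DNA is captured by a protein that binds methylated CpG sites and is then sequenced. Captured DNA was released in 3 steps by buffers of rising salt, and the fractions are the high, medium and low eluates. The conditions were HTE, MTE and LTE for the high, medium and low eluate of tender beef, and HTO, MTO and LTO for the same eluates of tough beef, each with 2 libraries. The animals were yearling Angus steers of one herd on one pelleted diet, without a further treatment named in the sources, and 2 with the tender and 2 with the tough class of beef were drawn from the extremes of shear force, and all 3 eluates of a beef class came from the same 2 animals. The sources differ on whether high names the salt or the methylation level, so the eluates are called by their label and no methylation level is read from them.

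DNA methylation in mammals is the addition of a methyl group to cytosine, mostly at CpG sites, and in muscle as in other somatic tissue most CpG sites outside CpG islands carry it. Heavily methylated DNA includes repeated sequence, which somatic cells keep silent, while active promoters are mostly free of it. A capture protein holds a fragment more firmly when the fragment has more methylated CpG sites, so eluates of different salt sample different densities of methylated CpG. In bulk muscle DNA, a change in the share of cells that carry a mark and a change in the mark per cell cannot be told apart. The genes, repeats and CpG content under both windows were not analysed here.

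A peak is a place where tags, the mapped reads, pile up above the local background. Its pileup is the number of tags extended over the summit and its fold enrichment is the ratio of pileup to local background, each with 1 added. Since 1 tag per position and strand was kept, a pileup cannot exceed 2 times the fragment length, which was 146 to 203 bp. The libraries held 3677473 to 7981292 tags after duplicates were removed and 9944 to 36663 peaks. LTE_1 stood apart from the other libraries. It had the fewest peaks, and the median pileup of its peaks on the rest of chromosome 27 was 53 against 10 to 21 in the other 11 libraries, so values scaled by the rest of the chromosome are given with and without it.

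Peaks were far denser in both windows than elsewhere on the chromosome. The 28 Mb window held 277 ± 30.01 peaks per library (SD, n = 12), the highest mean of the 2676 windows of 1 Mb with a peak in the genome, and the 37 Mb window held 90.3 ± 28.4 (SD, n = 12). The median over the other 44 windows of chromosome 27 was 8.58 peaks per library, so the windows held 32.3 and 10.5 times as many. The densest of the other windows started at 43 Mb with 34.4 peaks, at 5 Mb with 32.5 and at 26 Mb with 30.75. Directly beside the members, the window at 27 Mb held 3.08 peaks and that at 29 Mb 7.25, and those at 36 and 38 Mb held 19.8 and 11.9.

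The number of peaks in the 28 Mb window changed little from library to library. The counts were 245 and 247 for HTE and 236 and 243 for HTO, 305 and 317 for MTE and 292 and 288 for MTO, and 258 and 307 for LTE and 277 and 311 for LTO. The highest count was 1.34 times the lowest, while on the rest of chromosome 27 the highest was 3.35 times the lowest, with 253 to 848 peaks. All 4 high libraries lay below the other 8, and the medium and low libraries overlapped.

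The 37 Mb window varied more. The counts were 87 and 82 for HTE and 76 and 77 for HTO, 127 and 134 for MTE and 116 and 103 for MTO, and 34 and 58 for LTE and 89 and 101 for LTO. Here the medium libraries were the highest and both LTE libraries the lowest, and the highest count was 3.94 times the lowest.

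**Figure D1:**
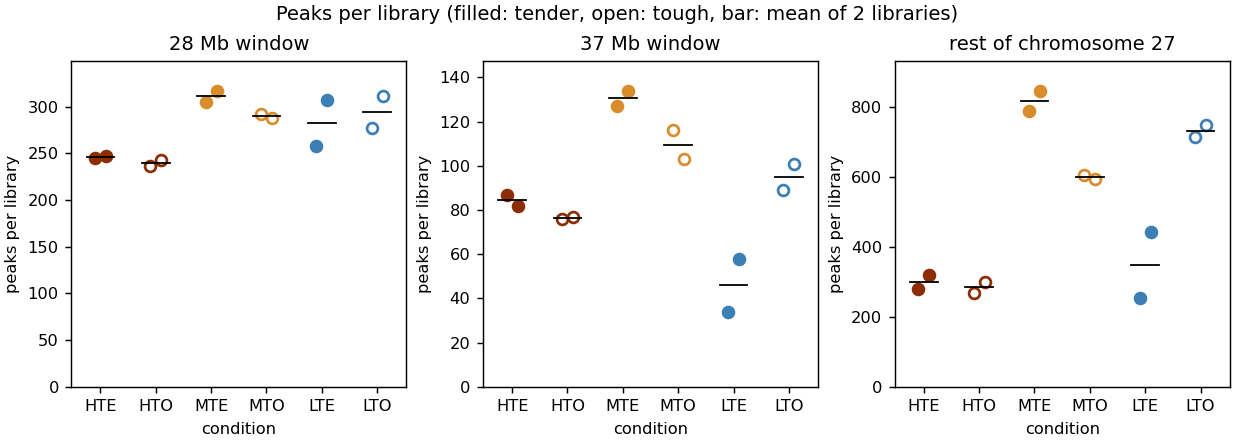
Peaks per library in the 28 Mb window, the 37 Mb window and the rest of chromosome 27 (vertical axes, linear from 0) for the 6 conditions. Points are libraries, filled for tender and open for tough beef, and bars are means of 2. In the 28 Mb window the counts stay between 236 and 317, while on the rest of the chromosome they run from 253 to 848.

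As a share of all peaks on chromosome 27, the 28 Mb window took 38.1 to 40.6% in the high libraries and 24.4 to 29.2% in the medium libraries. In the low libraries its share was 47.3% and 37.9% in LTE and 25.6% and 26.8% in LTO. For the 37 Mb window the share was 12.4 to 14.2% in the high, 10.3 to 11.4% in the medium and 6.24 to 8.69% in the low libraries, and the 3 eluates did not overlap. These orders depend on which peaks are counted. With equal numbers of peaks per library, the mean share of the 28 Mb window was 42.3% in the high, 44.2% in the medium and 45.2% in the low eluate, and with fold enrichment of at least 3 it was 33.0, 11.4 and 3.60%. Those of the 37 Mb window with fold enrichment of at least 3 were 3.75, 4.76 and 3.84%.

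Tender and tough beef differed in number of peaks in a way that changed with the eluate. In the high eluate, tender beef had 246 ± 1.41 and tough beef 239.5 ± 4.95 peaks in the 28 Mb window (SD, n = 2 each). In the medium eluate the means were 311 ± 8.49 and 290 ± 2.83, and in neither eluate did the libraries of tender and tough beef overlap. In the low eluate they did overlap, with 282.5 ± 34.6 in tender and 294 ± 24.0 in tough beef. Tough beef had, within the 37 Mb window, 0.905 times the number of tender beef in the high, 0.839 times in the medium and 2.07 times in the low eluate, with no overlap at any of them.

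The same ratios on the rest of the chromosome were 0.947, 0.733 and 2.103. The number of tags after duplicates were removed moved the same way in part. Both HTO libraries had fewer such tags than both HTE libraries, both MTO libraries fewer than both MTE libraries, and both LTO libraries more than both LTE libraries. Before duplicates were removed the medium eluate went the other way, with 14981895 and 13439772 tags in MTO against 11889327 and 12635437 in MTE. The part of the number of tags in the number of peaks was not tested.

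Within each window most peaks of each library were packed in 1 stretch. A core stretch was defined as the longest run of 10 kb bins in which at least 6 of the 12 libraries had a peak. That of the 28 Mb window was chr27:28460001-28940000, 480 kb long, and held 98.1 to 99.6% of the window's peaks. That of the 37 Mb window was chr27:37550001-37660000, 110 kb long, and held 66.1 to 92.1% of them. In the merged lists the share was 91.7 to 98.8% in the 28 Mb window and 45.7 to 85.4% in the 37 Mb window. Outside the core stretches each library had 1 to 6 peaks in the 28 Mb window and 6 to 43 in the 37 Mb window.

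Most peaks outside the core stretches were much lower than those inside. Their median pileup was 7 to 20.5 in the 28 Mb window and 9.5 to 17 in the 37 Mb window, while inside the core stretches it was 105 to 170 and 83 to 231.5. An exception was the widest region of the 37 Mb window, chr27:37444911-37447039, with pileups of 82 to 247. The edges were sharp. Background around the peaks of the 28 Mb window, relative to the genome-wide background of the library, was 1 to 1.67 times outside the core stretch and 105 to 168 times inside it.

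**Figure D2:**
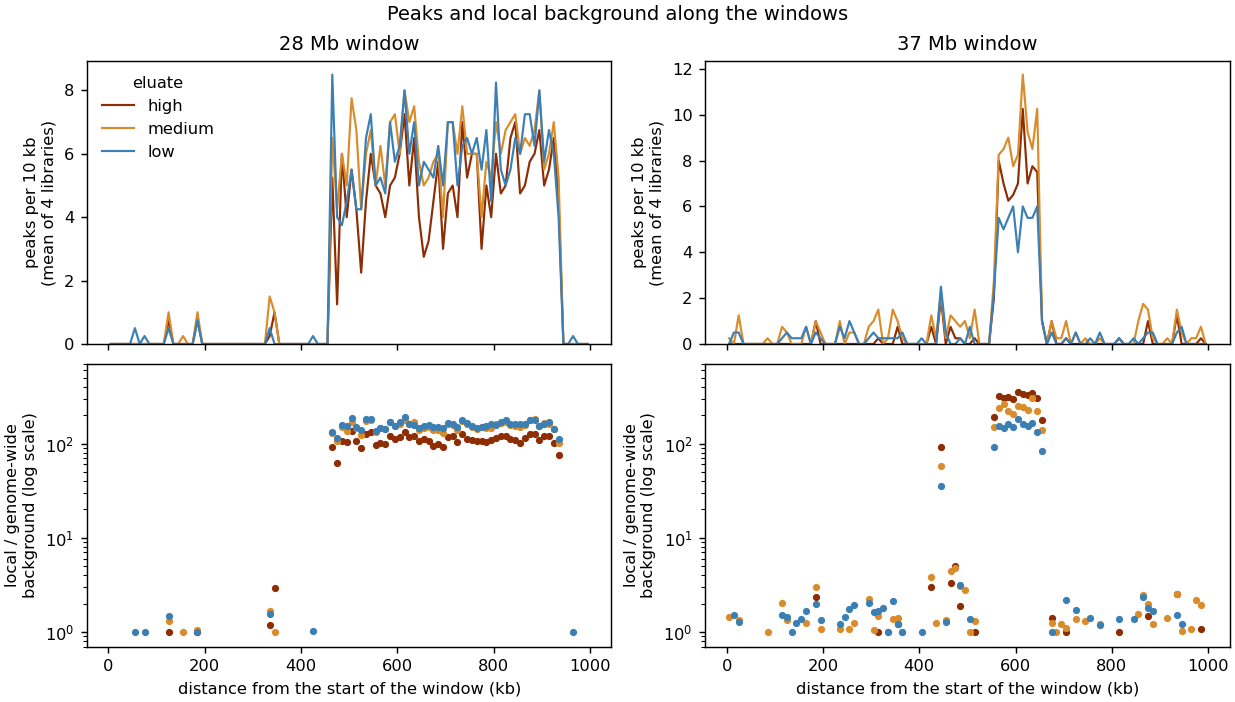
Peaks per 10 kb (top, mean of 4 libraries) and local background over genome-wide background (bottom, log scale, median of the peaks in a bin) against the distance from the start of each window in kb, with a line or points for each eluate. The peaks and the raised background fill the same core stretches, 480 kb and 110 kb long, and an isolated raised bin lies about 100 kb before the shorter one.

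Some distances between neighbouring peaks were more frequent than others in both core stretches. The median distance between summits in the 28 Mb core stretch was 1385 to 1650 bp in the 12 libraries. In classes of 100 bp, the most frequent distance began at 1300 bp in 9 libraries and at 1200 bp in MTE_2, LTO_1 and LTO_2, and 45.3 to 61.7% of distances were from 1100 to under 1700 bp. The commonest distances thus lay in neighbouring classes in the high, medium and low eluates.

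The commonest distance was shorter in the 37 Mb core stretch in all libraries but LTE_1, and other distances were frequent there too. In the high eluate the classes from 500, 800 and 1300 bp held 11.1, 16.7 and 13.1% of distances. In the medium eluate they held 10.6, 20.1 and 6.50%. The most frequent class began at 800 bp in 10 libraries, at 700 bp in LTO_1 and at 2700 bp in LTE_1, which had 26 peaks there. From 400 to under 1000 bp lay 41.5 to 62.8% of distances in the high, medium and LTO libraries, and 20% and 22.7% in LTE. Of the distances in the 28 Mb core stretch, 5.30 to 12.4% fell in that range. On the rest of the chromosome the median distance was 2980 bp in LTE_1 and 11319 to 23015 bp in the other libraries. Since spacing follows in part from the number of peaks, none of this was tested.

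**Figure D3:**
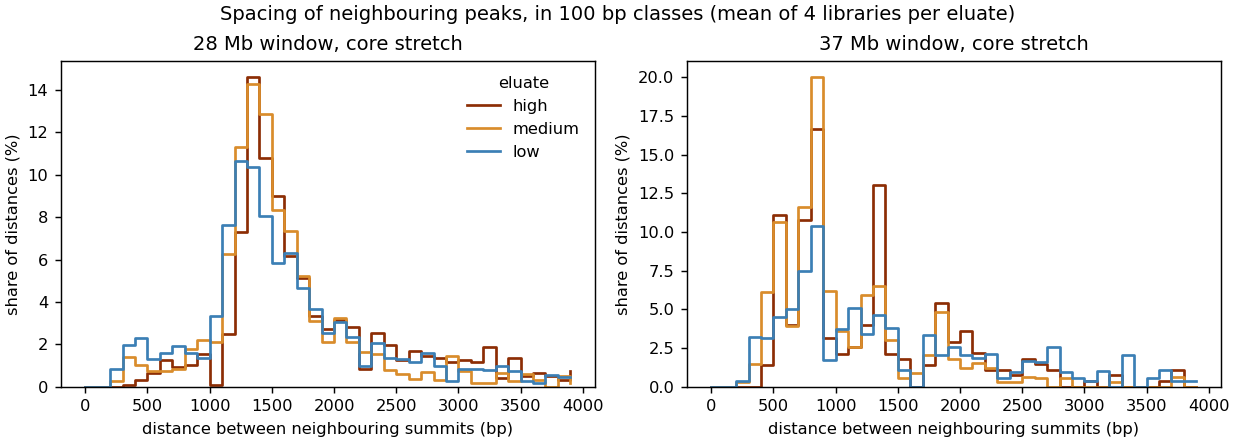
Share of distances between neighbouring summits (vertical axis, %, mean of 4 libraries) by distance in 100 bp classes (horizontal axis, bp) in each core stretch, with a line for each eluate. The 28 Mb core stretch has its maximum at 1200 to 1400 bp in all 3 eluates, and the 37 Mb core stretch has it in the class from 800 bp.

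Peaks of different libraries often overlapped, above all in the 28 Mb window. When overlapping peaks of the 12 libraries were joined into regions, this window had 364 regions, and 185 of them (50.8%) had a peak in every library. Over all 76298 regions of the genome the share was 4.36%, and on the rest of chromosome 27 it was 5.06%. The 37 Mb window had 185 regions, of which 20 (10.8%) had a peak in every library. Regions found in 1 library made up 8.24% in the 28 Mb window, 25.9% in the 37 Mb window and 41.0% on the rest of the chromosome. The windows were chosen for dense peaks, and dense peaks overlap between libraries more often wherever they lie. The part of this in the shares was not tested.

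The summit itself was less sharply placed in the 28 Mb window. Over regions with 1 peak in each of the 12 libraries, the median SD of the summit position was 55.9 bp in the 28 Mb window (164 regions), 38.8 bp in the 37 Mb window (17 regions) and 29.3 bp on the rest of the chromosome (57 regions). Over the genome it was 37.1 bp (2513 regions). All regions of the 28 Mb window had a median width of 426.5 bp, against 223 bp on the rest of the chromosome. The part of width in the SD was not tested.

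**Figure D4:**
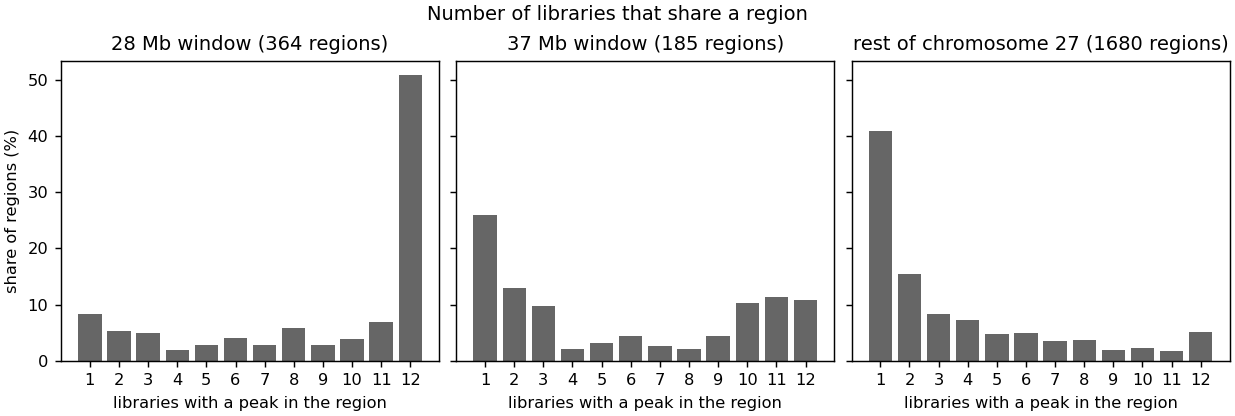
Share of regions (vertical axis, %) by the number of libraries with a peak in them (horizontal axis, 1 to 12), for each window and the rest of chromosome 27. In the 28 Mb window 50.8% of regions are in all 12 libraries, while on the rest of the chromosome 41.0% are in 1 library.

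Regions that set one eluate apart were more often on the low side in the 28 Mb window. There, 29 regions (7.97%) had a peak in all 4 low and no high library, and 5 (1.37%) in all 4 high and no low library. The counts were 0 and 5 in the 37 Mb window, and on the rest of the chromosome 46 and 37 of 1680. These counts follow in part from the number of peaks per library, and they were not tested.

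Lists called on merged replicates added few places in the 28 Mb window. The merged lists held 259 to 363 peaks there, and 2.33 to 14.9% of these overlapped a peak in neither of their 2 libraries. The share was 6.74 to 41.7% in the 37 Mb window and 21.9 to 67.9% on the rest of the chromosome. LTE had the highest share in the 37 Mb window and on the rest of the chromosome, and LTO had it in the 28 Mb window.

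Of the places shared by all 12 libraries, the one with the highest median pileup in the 28 Mb window was chr27:28712610-28712968. Its pileup was 179 and 178 for HTE and 153 and 159 for HTO, 244 and 252 for MTE and 224 and 220 for MTO, and 260 and 268 for LTE and 274 and 254 for LTO. The 3 eluates did not overlap, in the order high, medium, low, although the pileup is not corrected for the number of tags. Its fold enrichment was 3.18 to 4.70 in the 12 libraries.

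At the next 4 places in that order the high libraries were again the lowest in uncorrected pileup, and they also had the fewest tags. Over all core peaks of this window, pileup over the genome-wide background did not separate high from low libraries, as given below. The region chr27:28819899-28820639 had pileups of 130 to 168 in the high, 190 to 237 in the medium and 225 to 248 in the low libraries, the last 2 overlapping. At chr27:28615201-28615555 the ranges were 120 to 142, 196 to 226 and 246 to 287, and 287, in LTO_1, was the highest pileup of the window. The region chr27:28504013-28504770 had 125 to 150, 193 to 232 and 237 to 274, and chr27:28827298-28827962 had 118 to 138, 188 to 217 and 160 to 219. The widest region, chr27:28490904-28492273 with 1370 bp, had pileups of 98 to 130, 139 to 181 and 196 to 210.

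The order of high and low libraries in pileup, again not corrected for the number of tags, was turned round in the 37 Mb window. Its first shared place, chr27:37635213-37635775, had pileups of 234 and 242 for HTE and 249 and 234 for HTO, 193 and 184 for MTE and 253 and 262 for MTO, and 91 and 131 for LTE and 178 and 140 for LTO. All 4 low libraries were below all 8 others, and MTE lay below both HTE and MTO. Its fold enrichment was 1.87 to 2.24.

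At the other 4 shared places of highest pileup in this window, the low libraries were below the high ones, and at 2 of them they overlapped the medium ones. At chr27:37605985-37606460 the pileup was 228 to 252 in the high, 186 to 255 in the medium and 105 to 196 in the low libraries. The regions chr27:37640167-37640572 and chr27:37599444-37599854 had 236 to 254 and 230 to 260 in the high libraries against 95 to 154 and 89 to 151 in the low. At chr27:37598237-37598666 the high libraries had 233 to 265 and the low 87 to 178, and MTO_2 had the highest pileup of the window with 266.

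The widest region of the 37 Mb window lay outside its core stretch. It was chr27:37444911-37447039, 2129 bp long, with 27 peaks in the 12 libraries and pileups of 217 to 241 in the high, 176 to 247 in the medium and 82 to 174 in the low libraries. Its fold enrichment was 3.51 to 8.14, higher than at the shared places of the core stretch, and its local background was 32.7 to 102 times the genome-wide background. It is the isolated raised bin of the plot along the windows.

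Peaks of the windows were tall but stood little above their surroundings. Their median pileup was 105 to 170 in the 28 Mb window and 78 to 229.5 in the 37 Mb window. On the rest of chromosome 27 it was 10 to 21, and 53 in LTE_1. The median fold enrichment was 2.05 to 3.12 and 1.88 to 2.18 in the windows and 5.24 to 7.33 on the rest of the chromosome. No control was used, so the local background holds the tags of the peak itself and of its neighbours, which lie closer in the windows. The part of this in the fold enrichment was not tested. The tallest peak reached 40.1 to 91.2% of the possible pileup in the 28 Mb window and 37.4 to 81.2% in the 37 Mb window. In the 28 Mb window it was 40.1 to 50% in the high, 69.1 to 86.3% in the medium and 83.9 to 91.2% in the low libraries.

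Median peak width was 280 to 312 bp in the high, 357 to 370 bp in the medium and 307 to 340 bp in the low libraries in the 28 Mb window. Peaks of the 37 Mb window had 239 to 264, 223 to 253 and 203 to 249 bp. On the rest of chromosome 27 it was 264 to 291, 209.5 to 258.5 and 182 to 212 bp. Scaled by the rest of the chromosome in the same library, peaks of the 28 Mb window were 1.06 to 1.12 times as wide in the high libraries and 1.39 to 1.86 times as wide in the other 8. For the 37 Mb window the same ratio was 0.875 to 0.953 in the high and 0.958 to 1.23 in the other libraries. Unscaled, the high libraries did not have the narrowest peaks there. Their lower ratio in that window rests on their wider peaks on the rest of the chromosome.

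These scaled widths and pileups were compared between eluates in 12 exact permutation tests over libraries, 4 against 4, two-sided and adjusted by Benjamini-Hochberg over the 12. None passed an adjusted p of 0.05, and 5 had an unadjusted p under it. The scaled width in the 28 Mb window was lower in the high than in the medium libraries by a log2 difference of -0.54, with means of 0.11 ± 0.03 and 0.65 ± 0.14 (SD, n = 4 each), and lower than in the low libraries by -0.62. These log2 differences were -0.20 and -0.33 in the 37 Mb window, where the high libraries did not have the lowest unscaled widths. Each of the 4 had an exact permutation p of 0.0286, the smallest that 4 against 4 allows, and an adjusted p of 0.0686, and in each the high libraries did not overlap the others. Without LTE_1 these 4 had an adjusted p of 0.0490 in the same exact test, while the unadjusted p stayed at 0.0286. Those for high minus medium hold no low library, so their log2 differences were unchanged and only the adjustment moved. With peaks of fold enrichment of at least 3 alone, the direction in the 37 Mb window turned to 0.45 and 0.47, each with an adjusted p of 0.0571 in the exact test.

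Scaled pileup in the 28 Mb window was lower in the high than in the medium libraries by -1.20 on the log2 scale, with an exact permutation p of 0.0286 and an adjusted p of 0.0686, and with equal numbers of peaks per library this was -0.27. High minus low was -0.63 in the 28 Mb window and 0.73 in the 37 Mb window, with exact permutation p of 0.486 and 0.543. LTE_1 decided both, since its peaks in the windows were 2.21 and 1.47 times as tall as its other peaks and those of the other low libraries 9.18 to 15.9 times. Without LTE_1 they were -1.31, with an adjusted p of 0.0490 in the exact test, and -0.02. With equal numbers of peaks per library the direction in the 28 Mb window turned to 0.76, with an adjusted p of 0.0429 in the exact test, so no direction is read from it.

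A measure that does not use the rest of the chromosome was taken from the local background. This is the mean level of the library's own tags in the 10000 bp around a peak, those of peaks included. It was divided by the genome-wide background of the library, which scales it by depth and fragment length. Since 1 tag per position and strand was kept, the local level has an upper limit too. The share of tags left after duplicates were removed was 40.1 to 70.7%, and the part of this limit was not tested. This measure and the core stretches were chosen after the data had been seen. On the rest of chromosome 27 the median was 1.27 to 3.27 times the genome-wide background, and 33.5 times in LTE_1.

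Local background in the 28 Mb core stretch was 105 and 107 times the genome-wide background for HTE and 116 and 117 times for HTO, 165 and 159 for MTE and 147 and 147 for MTO, and 151 and 163 for LTE and 153 and 168 for LTO. The 4 high libraries were the lowest, and medium and low libraries overlapped. High minus medium was -0.47 and high minus low -0.51 on the log2 scale, each with an exact permutation p of 0.0286, adjusted over 9 tests to 0.0367. Medium minus low was -0.04, with an exact permutation p of 0.486.

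For the 37 Mb core stretch the same ratio was 311 and 300 for HTE and 372 and 337 for HTO, 212 and 216 for MTE and 308 and 295 for MTO, and 118 and 131 for LTE and 166 and 158 for LTO. The low libraries were the lowest, and medium and high libraries overlapped because MTO lay near HTE. High minus low was 1.21 and medium minus low 0.84 on the log2 scale, both with an exact permutation p of 0.0286 and an adjusted p of 0.0367. High minus medium was 0.37, with an exact permutation p of 0.0571, adjusted to 0.0643.

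The high and low libraries thus stood in opposite order in the 2 core stretches. The medium libraries overlapped the low ones in the 28 Mb and the high ones in the 37 Mb core stretch. The ratio of the 2 within a library combines both stretches and cannot show which of them differs. The background of the 37 Mb core stretch was 2.95 and 2.79 times that of the 28 Mb core stretch for HTE and 3.21 and 2.89 times for HTO, 1.28 and 1.36 times for MTE and 2.09 and 2.01 for MTO, and 0.779 and 0.802 for LTE and 1.08 and 0.943 for LTO. High, medium and low libraries did not overlap. The log2 differences were 0.85 for high minus medium, 1.73 for high minus low and 0.88 for medium minus low, each with an exact permutation p of 0.0286 and an adjusted p of 0.0367. These tests treat the libraries as independent, although the 3 eluates of a beef class came from the same animals. Leaving out HTO_1 took high minus medium to an adjusted p of 0.0735, and leaving out LTE_1 or LTE_2 took medium minus low to 0.0643, in the same exact test.

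**Figure D5:**
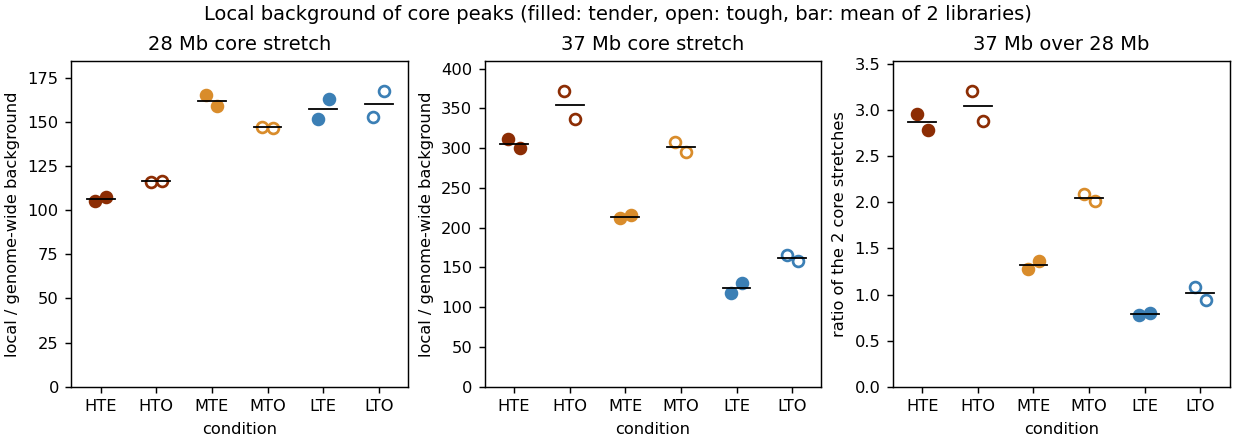
Median local background of the core peaks over the genome-wide background of the library (vertical axes, linear from 0) in the 28 Mb and the 37 Mb core stretch, and the ratio of the 2 within a library, for the 6 conditions. Points are libraries, filled for tender and open for tough beef, and bars are means of 2. The ratio is 2.79 to 3.21 in the high, 1.28 to 2.09 in the medium and 0.779 to 1.08 in the low libraries.

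Pileup of the core peaks over the genome-wide background, also chosen after the data had been seen, gave a similar order in the 37 Mb core stretch. High minus medium was 0.49, high minus low 1.35 and medium minus low 0.87 on the log2 scale, each with an exact permutation p of 0.0286, adjusted over 6 tests to 0.0343. For the 28 Mb core stretch high minus medium was -0.27 and medium minus low 0.30, both with the same p-values in the exact test. High minus low was 0.03, with an exact permutation p of 0.743, so the lower level of the high libraries seen in the local background was not seen in pileup against the low libraries. Pileup has an upper limit, to which the tallest peaks of the medium and low libraries came closer in this window than those of the high, and the part of this was not tested.

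Tough beef had the higher local background in the 37 Mb core stretch in all 3 eluates. It was 1.16 times that of tender beef in the high, 1.41 times in the medium and 1.30 times in the low eluate, and at none of them did the libraries overlap. For the 28 Mb core stretch the ratio was 1.09 in the high and 0.908 in the medium eluate, without overlap, and 1.02 in the low eluate, with overlap. The ratio of the 2 core stretches was higher in tough beef by 1.06 times in the high eluate, where libraries overlapped, and by 1.55 and 1.28 times in the medium and low eluates, where they did not. The smallest p that an exact permutation test of 2 libraries against 2 allows is 0.333, so none of these can pass a threshold.

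Regions that separated tender from tough beef were those where, within an eluate, both libraries of one class had a peak and both of the other had none. In the high eluate, 2 of 261 regions of the 28 Mb window were tender-specific and 4 tough-specific, against 3.62% and 1.66% of all regions of the genome. The 37 Mb window had 1 and 0 of 95. In the medium eluate the counts were 18 and 2 of 317 in the 28 Mb window and 5 and 3 of 159 in the 37 Mb window, against 8.74% and 1.83% of all regions.

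In the low eluate, 5 of 333 regions of the 28 Mb window were tender-specific and 10 tough-specific, against 0.501% and 9.24% over the genome. The 37 Mb window had 1 tender-specific and 21 tough-specific regions of 124. Those 21 are 16.9% of its regions, and on the rest of chromosome 27 tough-specific regions were 10.4%. The low tender libraries had fewer peaks than the low tough ones in this window, 34 and 58 against 89 and 101, and the part of this in the count was not tested. The shares of regions with a peak in all 4 libraries were 84.7, 85.5 and 68.8% in the 28 Mb window in the high, medium and low eluate, 69.5, 52.8 and 16.9% in the 37 Mb window, and 45.1, 33.3 and 12.9% on the rest of the chromosome.

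The leading group-specific regions of the 28 Mb core stretch had peaks in other eluates too, with 1 exception. The tough-specific region of highest enrichment in the low eluate of the 28 Mb window, chr27:28829556-28829789, had a peak in 10 of the 12 libraries, with pileups of 164 and 137 in LTO and 109 to 196 in the 8 high and medium libraries. In the high eluate the tender-specific region chr27:28839774-28839987 had pileups of 83 and 92 in HTE and a peak in all 4 medium libraries, with pileups of 130 to 146. The tough-specific region chr27:28477449-28477661 had 58 and 62 in HTO and a peak in 8 libraries. In the medium eluate the tough-specific region chr27:28468897-28469130 had pileups of 117 and 117 in MTO and a peak in 5 libraries. The exception was chr27:28650768-28650968, tender-specific in the low eluate with pileups of 118 and 148, which had no peak outside LTE.

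The group-specific regions of highest fold enrichment in the 37 Mb window lay outside its core stretch. The choice by fold enrichment favours such places, since the median fold enrichment was 1.78 to 2.15 inside the core stretch and 6.06 to 8.50 outside it. The tender-specific region of the high eluate, chr27:37466313-37466624, had pileups of 17 and 21, and that of the medium eluate, chr27:37198614-37198825, had 11 and 9. The tough-specific region of the medium eluate, chr27:37494009-37494299, had 14 and 16 and no peak outside MTO. In the low eluate chr27:37509718-37509921 had 8 and 9 in LTE, and the tough-specific region chr27:37673396-37673564 had 10 and 9 in LTO and a peak in all 8 high and medium libraries. The tender-specific region of the medium eluate in the 28 Mb window, chr27:28331375-28331642, was also outside the core stretch, with pileups of 12 and 11.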

How the data were processed

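DNA from 2 tender and 2 tough animals was sequenced as 12 libraries, grouped by the labels. Per the sources, reads cleaned by SOAPnuke were mapped on bosTau8 by the authors with BWA 0.7.7, and uniquely mapped reads went into MACS2 without a control (q-value 0.01, 10000 bp for the regional background, 1 tag kept at a position). Version 2.1.1.20160309 called single libraries with 2600000000 bp as effective genome size, and 2.1.0.20150731 called merged replicates with 2660939081 bp. The deposited lists give pileup, a signal not divided by depth, fold enrichment, a ratio, the −log10 of p-value and q-value, and the length of each peak in bp. The authors' own comparisons were not used.

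Local background was recovered from pileup and fold enrichment. Genome-wide background was tags times fragment length over effective genome size. The lowest local background of each of the 18 lists differed from it by at most 0.00043%. Peaks with 1 bp or more in common were joined into regions. Widths and pileups were medians per library on the log2 scale, divided by those of the rest of chromosome 27, and were compared between eluates by two-sided exact permutation tests, adjusted by Benjamini-Hochberg, at a threshold of 0.05. The named regions are, per window, the 5 with a peak in most libraries (ties by median pileup), the widest, the one with the highest pileup and, per eluate and beef, the group-specific region with the highest lower fold enrichment. The windows, rules and tests were chosen with earlier results of these data known. Python 3.11.15, numpy 2.4.6, pandas 2.3.3, scipy 1.17.1 and matplotlib 3.10.9 were used, and the code was tested on simulated data. The depth was 3677473 to 7981292 tags per library. Alternatives were another threshold on q or on fold enrichment, equal numbers of peaks, means for medians, other autosomes as reference, merged lists, other overlap rules, a replicate block and leaving out each library.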

Additional observations from a re-analysis of the deposited data

Results flagged for a closer look

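For the 37 Mb window the log2 ratio of tough to tender beef in number of peaks was -0.14 in the high and -0.25 in the medium eluate, and 1.05 in the low eluate. It was picked out because every tough library lay below every tender one in the former and above in the latter. For the share of chromosome 27 peaks in the 28 Mb window, the same log2 ratio was 0.23 in the medium and -0.70 in the low eluate. For its median pileup over the rest of the chromosome it was 0.22 in the high, -0.079 in the medium and 1.05 in the low eluate, the last resting on LTE_1. For its local background over the genome-wide background it was 0.13 in the high and -0.14 in the medium eluate. These differences between eluates were not tested.

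Among the 4 medium libraries, MTO_1 had 11.4% of its chromosome 27 peaks in the 37 Mb window, and the nearest of the others had 10.5%. The gap was 0.873 of the whole range. Chance gives such a gap in about 1 in 20 groups, and 36 groups were looked at.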

How the results depend on the processing

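The limits are 2 libraries per condition, a p that cannot go below 0.0286 for 4 libraries against 4, and a pileup and local background with an upper limit. Over all alternatives 388 values kept their direction and side of the threshold or moved within the spread. A further 27 passed the threshold newly, 10 lost it, 17 moved and 11 reversed. Part of the 388 could not change in value, so their number does not measure stability. Leaving out a library of one eluate leaves each difference between the other eluates as it was, and the replicate block leaves every log2 difference as it was. The cause was not tested in any case except where the construction is named.

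With peaks of fold enrichment of at least 3, which keeps 50.6 to 58.1% of the peaks of the 28 Mb window in the high, 21.0 to 41.4% in the medium and 4.33 to 6.59% in the low libraries and 14.5 to 36.2% of those of the 37 Mb window, the log2 differences reversed for pileup in the 28 Mb window, medium minus low (-0.33), for width in the 37 Mb window (high minus medium 0.45, high minus low 0.47, medium minus low 0.015) and for its pileup, high minus medium (1.26). With equal numbers of peaks per library, pileup reversed for high minus low in the 28 Mb window (0.76, past the threshold) and high minus medium in the 37 Mb window (0.48). The threshold was also passed for width in the 28 Mb window (high minus medium -0.33, high minus low -0.60, medium minus low -0.27), for width in the 37 Mb window (high minus low -0.42, medium minus low -0.30) and for its pileup (high minus low 2.09, medium minus low 1.61). With means for medians it was passed for width in the 28 Mb window (-0.53 and -0.62 for high minus medium and high minus low), its pileup (-1.21 and -0.92), width in the 37 Mb window (-0.19 and -0.31) and its pileup (-0.21 for high minus medium and 0.77 for medium minus low). Pileup over the genome-wide background, added after the data were seen, passed it for -0.27 and 0.30 in the 28 Mb window and 1.35 and 0.87 in the 37 Mb window, and reversed for high minus low in the 28 Mb window (0.027) and high minus medium in the 37 Mb window (0.49).

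Leaving out 1 library at a time gave log2 differences of -0.60 to -0.50 for width in the 28 Mb window, high minus medium, and -0.68 to -0.56 for high minus low. For the 37 Mb window they were -0.23 to -0.18, -0.41 to -0.29 and, for medium minus low, -0.21 to -0.090. For pileup in the 28 Mb window they were -1.24 to -1.15, -1.31 to -0.37 and -0.11 to 0.84, and for high minus low in the 37 Mb window -0.022 to 1.09. Leaving out LTE_1 gave 7 of the new calls, both reversals and 1 of the 3 lost calls, and HTO_1 and LTE_2 gave 1 lost call each. Of these 7, the calls for high minus medium hold no low library and came from the adjustment alone. For local background the log2 differences were 0.29 to 0.47 in the 37 Mb core stretch, high minus medium, where leaving out MTO_1 gave a call. For the ratio of the core stretches they were 0.73 to 0.96 (high minus medium) and 0.76 to 1.00 (medium minus low).

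Deviations of same-numbered libraries of different eluates had correlations of -0.08 to 0.01 over 2513 regions. Those of tender with tough libraries of the same eluate were -0.11 to 0.008. Such values do not show whether replicate numbers pair the libraries by animal, and the sources do not say it. With the number as a block, the log2 differences of the local background are the same by construction. They were -0.47 and -0.51 in the 28 Mb window, 1.21 and 0.84 in the 37 Mb window and 0.85, 1.73 and 0.88 for the ratio. Each had an exact sign-flip p of 0.125, the smallest that 4 pairs allow, adjusted to 0.141. These 7 thus no longer passed the threshold.

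The share of chromosome 27 peaks in the 28 Mb window, 39.5, 26.8 and 34.4% in the high, medium and low eluate, was 33.0, 11.4 and 3.60% with fold enrichment of at least 3, 42.3, 44.2 and 45.2% with equal numbers of peaks and 32.5, 16.0 and 14.4% in merged lists. For the 37 Mb window it was 13.1, 10.6 and 7.58%, against 3.75, 4.76 and 3.84% with fold enrichment of at least 3 and 11.6, 8.41 and 5.60% in merged lists, and 6.38% in the low eluate with equal numbers. Joining peaks up to 500 bp apart took the group-specific regions of the medium eluate in both windows from 28 to 16.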
